A study of Homo sapiens with 6 samples.

Results

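Keratins are the intermediate filament proteins of epithelial cells, and the 55 genes described here are all protein-coding rows of the deposited expression table whose symbol is KRT followed by a number and at most 1 letter, out of 58735 genes in all. Of these, 29 encode type I and 26 encode type II keratins. By an assignment made by hand after textbook use, 5 are keratins of simple epithelia, 23 of stratified epithelia and 26 of hair and the hair follicle. KRT222 was put in none of these classes. The RNA came from NCI-N87, an established gastric carcinoma cell line, and was sequenced in 6 libraries. The 3 control libraries, titled shNC and called shCtrl here, came from cells with the empty lentiviral vector pSIH-H1-puro, and the 3 libraries titled shScamp1, called shS1#1 here, came from cells with the same vector carrying a short hairpin RNA against SCAMP1, an endocytic membrane protein. Both groups were stable cell populations selected with puromycin at 2 μg/ml, and a single hairpin was sequenced. The labels call the 3 libraries of a group biological replicates but do not say whether they came from separate infections, so the p-values measure the spread between these libraries, which may be partly technical.

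A keratin filament is built from heterodimers of an acidic type I and a basic type II keratin, so that a cell makes both types. Simple epithelia such as the gastric and intestinal lining carry mostly KRT8 and KRT18 with KRT19, KRT7 or KRT20. Basal cells of stratified epithelia carry KRT5 and KRT14, differentiated cells replace these by pairs such as KRT4 with KRT13 or KRT1 with KRT10, and KRT6A, KRT16 and KRT17 are known as keratins of wounded, stressed or hyperproliferating epithelium. Type II genes lie in a cluster on chromosome 12 together with KRT18, and the other type I genes lie in a cluster on chromosome 17. In the coordinates of the deposited table (GRCh38), the 27 genes on chromosome 12 lie within chr12:52168996-52952901 and the 28 genes on chromosome 17 within chr17:40654665-41624842.

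SCAMP1 itself was at 12.6, 12.1 and 11.5 FPKM (a read count divided by the length of the gene and by the depth of the library) in the shCtrl libraries and at 1.70, 1.37 and 1.99 in the shS1#1 libraries. The log2 fold change of SCAMP1 was −2.78 ± 0.14 (SE) with an adjusted p of 0.000248 in limma with Benjamini-Hochberg adjustment over all 15556 genes tested, the test used for every adjusted p below. Libraries held 14311769 to 15988700 reads on genes. The library shS1#1 replicate 2 stood apart: 1479 genes were there more than 1.5 times below both other libraries of its group, against 344 to 454 in the other libraries, and 9.21% of its reads were mitochondrial, against 6.09% to 6.78%. KRT10, KRT13 and KRT15 were among those genes, and keratin values without it are given for these. Without it 15 keratins were higher and none lower at an adjusted p under 0.05, where 14.9% and 13.4% of all 15458 genes tested then were. Of 8 epithelial markers EPCAM, the most abundant, was at 141 to 156 FPKM in all libraries, and CDH1, CLDN4 and ESRP1 were higher in shS1#1 with adjusted p of 0.0311, 0.0192 and 0.0115. Without shS1#1 replicate 2 ELF3 was higher too. Of 10 fibroblast and mesenchymal markers, 1 passed the filter, their summed level was 0.664 to 0.944 FPKM in shCtrl and 0.786 to 1.05 in shS1#1, and COL1A2, PDGFRA, DCN and LUM were at 0. Of 9 leukocyte and endothelial markers none passed the filter, with sums of 0.602 to 0.816 and 1.02 to 1.03 FPKM. Of 11 gastric and intestinal markers, 3 passed the filter, at sums of 36.9 to 39.1 and 26.0 to 29.1 FPKM, while the gastric mucosal peptide TFF1 and the intestinal factor CDX1 were at 0. The cells thus had epithelial markers, but most gastric lineage markers were low in both groups.

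NCI-N87 cells carried keratin RNA of many epithelial types at once, and the total was higher with shS1#1. The 55 keratins together were at 5857, 5944 and 6188 FPKM in shCtrl and at 10655, 11045 and 10283 in shS1#1. All 3 shS1#1 sums were above all 3 shCtrl sums, and the ratio of the means was 1.78. As a share of the FPKM of all genes outside the mitochondrial genome, keratins went from 2.61% ± 0.05 (SD, n = 3) to 4.70% ± 0.45. KRT8, KRT19, KRT18 and KRT17 together made up 91.0% of the difference of 4665 FPKM in the sum. The sum of the keratins other than the 6 with the highest means went from 358 ± 8.61 to 559 ± 37.6 FPKM. In bulk RNA, more RNA per cell cannot be told apart from more cells that express a gene.

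**Figure D1:**
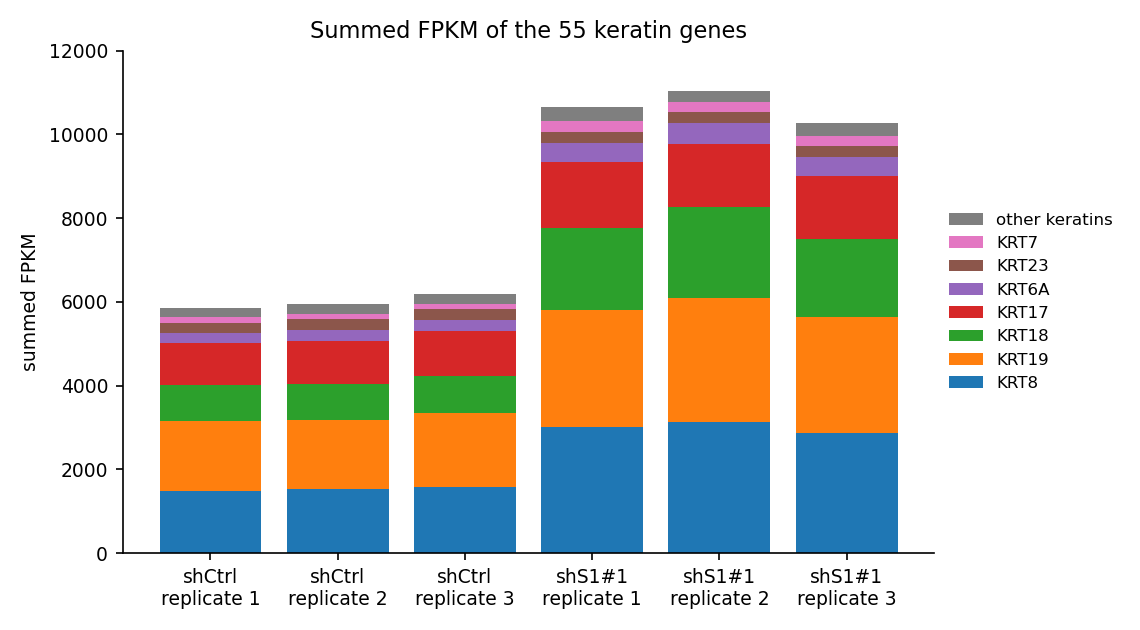
Stacked bars give the summed FPKM of all 55 keratins in each of the 6 libraries, with the 7 keratins of highest mean as separate segments and the others in grey. The shCtrl bars reach 5857 to 6188 FPKM and the shS1#1 bars 10283 to 11045, and the KRT8, KRT19 and KRT18 segments hold most of the difference.

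A filter of a mean of at least 0.5 FPKM left 23 of the 55 keratins for testing, 32 were too low, and 3 of these (KRT26, KRT27 and KRT28) had no read in any library. A gene was called when its adjusted p was under 0.05 and its log2 fold change above 1 in size. KRT18, KRT16, KRT4, KRT5, KRT81, KRT31 and KRT14 were called, all higher in shS1#1. Of all genes tested 3.16% were called, 2.42% in the higher and 0.746% in the lower direction. At an adjusted p under 0.05 alone, 14 of the 23 were higher, where 8.82% of all genes were, and the other 7 of these were KRT8, KRT19, KRT17, KRT6A, KRT7, KRT80 and KRT6B. No tested keratin was lower at an adjusted p under 0.05, where 5.17% of all genes were, nor at an unadjusted p under 0.05, with limma or with voom on the recovered reads. In 16 of the 23 every shS1#1 library was above every shCtrl library, and in none below, where 20.4% of all genes lay above, 21% below and 41.4% either way. The median log2 fold change was 0.90 over the 23 keratins (0.85 without shS1#1 replicate 2) and −0.02 over all genes tested. A keratin that passed the filter only because it was high in 1 group had to differ, so these counts describe the expressed keratins and not the family.

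**Figure D2:**
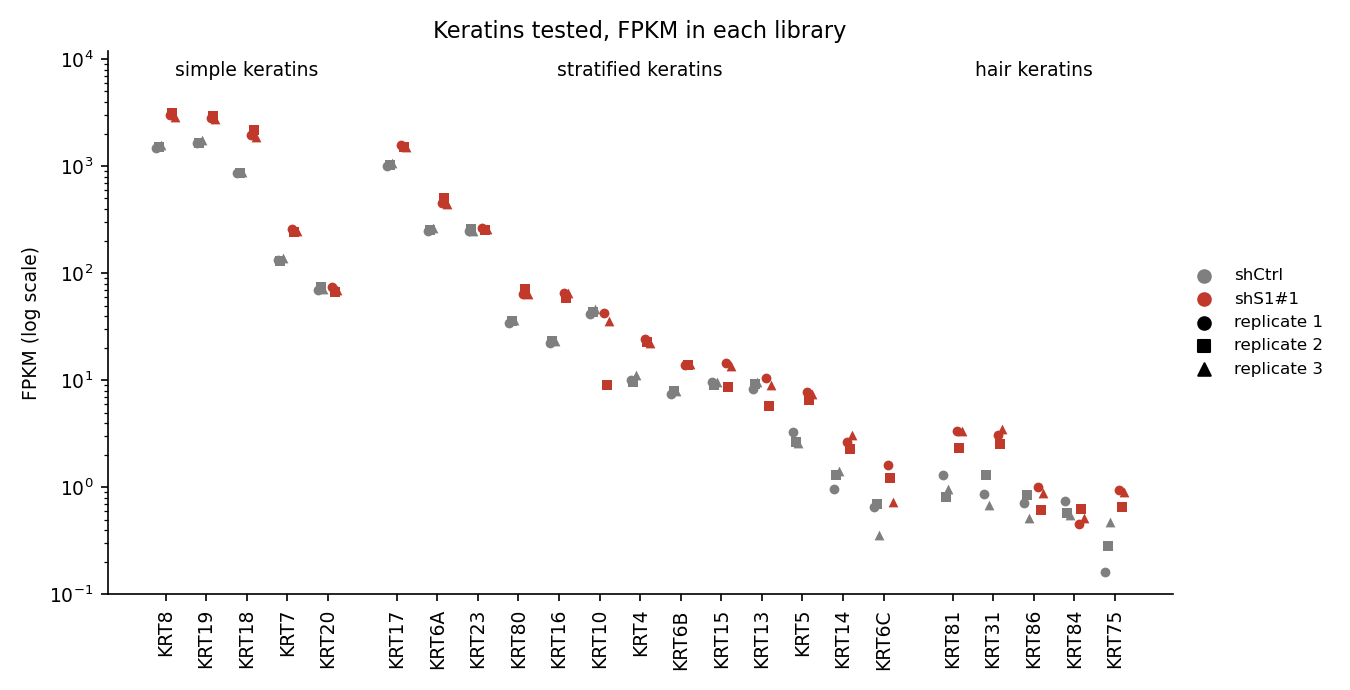
Points give FPKM on a log scale in each library for the 23 keratins tested, in grey for shCtrl and red for shS1#1, with a symbol for each replicate number. The groups are apart for KRT8, KRT19, KRT18, KRT7, KRT17, KRT6A, KRT80, KRT16, KRT4, KRT6B, KRT5, KRT14, KRT6C, KRT81, KRT31 and KRT75, and KRT10, KRT13 and KRT15 are lowest in shS1#1 replicate 2.

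The keratins of simple epithelia were the most abundant class, and 4 of its 5 genes rose. Their sum was 4303 ± 116 FPKM in shCtrl and 8166 ± 378 in shS1#1, a ratio of 1.90, and the median log2 fold change was 0.90. KRT8 (chr12:52897187-52949954), the main type II keratin of simple epithelia, was at 1491, 1522 and 1588 FPKM in shCtrl and 3003, 3129 and 2874 in shS1#1. The groups did not overlap, and its log2 fold change was 0.97 ± 0.10 with an adjusted p of 0.00241. It went from rank 5 to rank 1 among protein-coding genes outside the mitochondrial genome. KRT18 (chr12:52948871-52952901), the type I partner of KRT8, was at 867, 872 and 887 FPKM in shCtrl and 1961, 2175 and 1864 in shS1#1. All shS1#1 values were above all shCtrl values, with a log2 fold change of 1.19 ± 0.10 and an adjusted p of 0.00123, and its rank went from 15 to 4. These neighbouring genes lie on opposite strands and share 525 exonic bases, 16.3% of the exonic bases of KRT18 and 7.63% of those of KRT8, and the strand setting of the counting is not given in the sources used here.

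KRT19 (chr17:41523617-41528308), the smallest keratin and a type I keratin of simple and ductal epithelia, was at 1658, 1655 and 1750 FPKM in shCtrl and 2800, 2962 and 2769 in shS1#1. No shS1#1 value overlapped with shCtrl, and the log2 fold change was 0.75 ± 0.10 with an adjusted p of 0.00601. KRT7 (chr12:52232520-52252186), a type II keratin of glandular and ductal epithelia, was at 132, 131 and 139 FPKM in shCtrl and 258, 241 and 250 in shS1#1. It was higher in all 3 shS1#1 libraries, with a log2 fold change of 0.90 ± 0.07 and an adjusted p of 0.000938. Its antisense neighbour KRT7-AS, which shares 282 exonic bases with it, was also higher, from a range of 5.66 to 6.11 FPKM to a range of 7.99 to 9.84, with an adjusted p of 0.0115. KRT20, the type I keratin of intestinal and gastric surface epithelium, was the exception in this class. It was at 70.3, 74.9 and 71.0 FPKM in shCtrl and 73.9, 66.9 and 70.1 in shS1#1, with overlapping groups, a log2 fold change of −0.04 ± 0.07 and an adjusted p of 0.750.

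Of the 23 keratins of stratified epithelia 13 were tested. Of these 4 were called and 8 were higher at an adjusted p under 0.05, where 3.16% and 8.82% of all genes were. The sum of the 23 was 1686 ± 57.0 FPKM in shCtrl and 2486 ± 56.4 in shS1#1, a ratio of 1.47. The median log2 fold change of the 13 was 0.86. The sum depends on the assignment made by hand, which counts KRT23 here, at means of 252 FPKM in shCtrl and 260 in shS1#1. The group known from wounded and hyperproliferating epithelium (KRT6A, KRT6B, KRT16 and KRT17) rose in all its members that were abundant. KRT16 (chr17:41609778-41615899) was at 22.5, 23.3 and 23.2 FPKM in shCtrl and 65.7, 58.3 and 65.9 in shS1#1. The groups were far apart, and the log2 fold change of 1.46 ± 0.07 had an adjusted p of 0.000248. KRT6A (chr12:52487174-52493257), a type II partner of KRT16, was at 247, 254 and 266 FPKM in shCtrl and 451, 505 and 442 in shS1#1. It did not overlap between the groups, and its log2 fold change was 0.86 ± 0.09 with an adjusted p of 0.00206. KRT6B was at 7.49 to 7.97 FPKM in shCtrl and 13.9 to 14.2 in shS1#1, with a log2 fold change of 0.84 ± 0.06 and an adjusted p of 0.000768. KRT6C, the lowest of these near copies at 0.358 to 0.705 and 0.732 to 1.61 FPKM, did not pass at an adjusted p of 0.142. Between 39.1% (KRT6A) and 53.6% (KRT6C) of the 50-base windows in the transcripts of these 3 genes also occur in another gene, so the division of reads among them is uncertain.

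KRT17 (chr17:41619441-41624842), a type I keratin of basal and wounded epithelium, had the smallest increase of the 14. It was at 996, 1028 and 1080 FPKM in shCtrl and 1584, 1503 and 1505 in shS1#1. The groups did not overlap, and the log2 fold change of 0.57 ± 0.09 had an adjusted p of 0.0115. The adjusted p was 0.0759, 0.0725 and 0.0557 without shCtrl replicate 1, 2 and 3 and 0.0523 without shS1#1 replicate 3. The ratio of its group means was 1.48, against 2.75 for KRT16.

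The basal pair rose from low levels. KRT5 (chr12:52514575-52520687), the type II keratin of basal cells, was at 3.26, 2.63 and 2.61 FPKM in shCtrl and 7.70, 6.60 and 7.44 in shS1#1. Its groups did not overlap, and the log2 fold change was 1.33 ± 0.12 with an adjusted p of 0.00134. KRT14 (chr17:41582279-41586921), its type I partner, was at 0.968, 1.32 and 1.42 FPKM in shCtrl and 2.67, 2.27 and 3.06 in shS1#1. All shS1#1 values were above all shCtrl values, with a log2 fold change of 1.06 ± 0.18 and an adjusted p of 0.0139. The call for KRT14 was lost in 5 of 17 alternatives. Its adjusted p was 0.0528 without shCtrl replicate 2 and 0.0572 without shS1#1 replicate 3, and its log2 fold change was 0.91 without shCtrl replicate 1, 0.99 with total reads as the scaling and 0.72 with a pseudocount of 1. Of the 50-base windows of KRT14 23.8% occur in other genes, KRT16 the first of them, and KRT16 was the more abundant gene in every library, so reads of the 2 genes may be divided wrongly. TP63, the factor that marks basal cells of stratified epithelia, was not tested, at a mean of 0.020 FPKM in shCtrl and 0.028 in shS1#1.

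KRT4, KRT13 and KRT10 are keratins of differentiated layers, and they did not move together. KRT4 (chr12:52806549-52814551), the type II keratin of mucosal stratified epithelium, was at 10.1, 9.69 and 11.1 FPKM in shCtrl and 24.6, 22.7 and 22.5 in shS1#1. The groups did not overlap, and the log2 fold change was 1.17 ± 0.08 with an adjusted p of 0.000660. KRT13, its type I partner, was at 8.23, 9.21 and 9.71 FPKM in shCtrl and 10.6, 5.79 and 9.13 in shS1#1. Its groups overlapped, the log2 fold change was −0.13 ± 0.22 with an adjusted p of 0.725, and without shS1#1 replicate 2 it was 0.12 with an adjusted p of 0.399. KRT10, a type I keratin of suprabasal skin, was at 41.4, 43.2 and 46.2 FPKM in shCtrl and 42.2, 9.06 and 35.7 in shS1#1. The lowest value lies in shS1#1 replicate 2, and shS1#1 replicate 3 was also below every shCtrl library. The log2 fold change was −0.86 ± 0.56 with an adjusted p of 0.343. Without shS1#1 replicate 2 it was −0.17 with an adjusted p of 0.197.

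Among the remaining stratified keratins, KRT80, a type II keratin found in many epithelia, rose and KRT23 did not pass. KRT80 was at 34.4 to 36.5 FPKM in shCtrl and 63.9 to 71.3 in shS1#1, with a log2 fold change of 0.90 ± 0.07 and an adjusted p of 0.00107. KRT23, a type I keratin, was among the 6 most abundant keratins, at 249, 257 and 249 FPKM in shCtrl and 266, 253 and 261 in shS1#1. Its groups overlapped, with a log2 fold change of 0.05 ± 0.07 and an adjusted p of 0.684. KRT15, a type I keratin of basal cells, was at 9.65, 9.13 and 9.66 FPKM in shCtrl and 14.5, 8.74 and 13.5 in shS1#1. Only shS1#1 replicate 2 lay below the shCtrl libraries; the log2 fold change was 0.33 ± 0.19 with an adjusted p of 0.283 in all libraries, and 0.56 with an adjusted p of 0.00157 without it. The 10 stratified keratins that were not tested included KRT78 (28 reads in the 3 shCtrl libraries together and 61 in shS1#1), KRT9, KRT3 and KRT12 above a mean of 0.1 FPKM. KRT1, the textbook partner of KRT10, had 1 read in all 6 libraries.

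**Figure D3:**
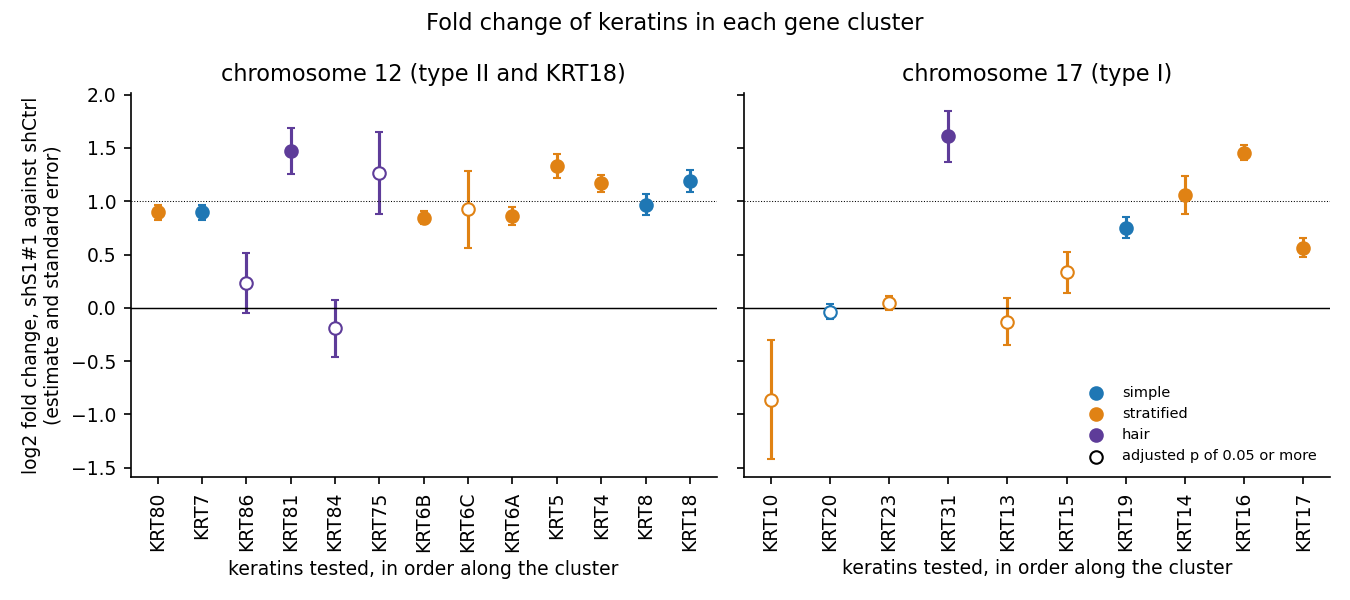
Points give the log2 fold change of shS1#1 against shCtrl with its standard error (n = 3 per group) for the 23 keratins tested, in their order along the chromosome 12 cluster (left) and the chromosome 17 cluster (right), and colours give the class. Filled points have an adjusted p under 0.05, and the dotted line marks a log2 fold change of 1. On chromosome 12 all but KRT84 are above 0, while on chromosome 17 KRT10, KRT13, KRT20 and KRT23 lie near or below 0.

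On chromosome 12, 13 of 27 keratins were tested, of which 9 were higher at an adjusted p under 0.05, 4 were called, and 11 did not overlap between the groups, where 8.82% of all genes were higher at an adjusted p under 0.05, 3.16% were called and 41.4% did not overlap. On chromosome 17, 10 of 28 were tested, 5 were higher at an adjusted p under 0.05, 3 were called, and 5 did not overlap. The median log2 fold change was 0.92 in the chromosome 12 cluster and 0.45 in the chromosome 17 cluster (0.57 without shS1#1 replicate 2), and this difference was not tested. The summed level went from 2860 ± 74.9 to 5836 ± 316 FPKM on chromosome 12, a ratio of 2.04, and from 3137 ± 96.4 to 4825 ± 75.5 on chromosome 17, a ratio of 1.54. By type rather than position, the ratio of summed FPKM between the groups was 1.93 for type II and 1.70 for type I keratins, and the ratio of type II to type I FPKM was 0.491, 0.495 and 0.497 in shCtrl and 0.561, 0.567 and 0.558 in shS1#1. Type I RNA remained the more abundant in every library. Of the 25 other genes within the chromosome 12 cluster 4 were tested, and KRT7-AS alone had an adjusted p under 0.05. Of the 55 other genes within the chromosome 17 cluster 3 were tested and none was called, with an adjusted p of 0.647 for the keratin-associated protein gene KRTAP2-3, and 28 of the 40 keratin-associated protein genes there had no read.

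Since keratins polymerise as pairs, the ratio of partner genes was computed per library for textbook pairs. A comparison of 3 with 3 libraries by an exact two-sided permutation test cannot give a p below 0.1, so these ratios are descriptions, and 5 of 6 pairs had both partners above the filter. The KRT8 to KRT18 ratio was 1.72, 1.75 and 1.79 in shCtrl and 1.53, 1.44 and 1.54 in shS1#1, lower in all 3. The KRT6A to KRT16 ratio was 11.0, 10.9 and 11.5 in shCtrl and 6.86, 8.67 and 6.70 in shS1#1, also without overlap. The KRT4 to KRT13 ratio was 1.22, 1.05 and 1.15 in shCtrl and 2.32, 3.91 and 2.47 in shS1#1, higher in all 3 and highest in shS1#1 replicate 2. The log2 differences of these pairs were −0.22, −0.59 and 1.30, each with the smallest p the test allows, 0.1. The KRT7 to KRT19 ratio was 0.0798, 0.0792 and 0.0795 in shCtrl and 0.0920, 0.0814 and 0.0903 in shS1#1, also without overlap. It moved by 0.14 on the log2 scale, again with the smallest p (p = 0.1, exact permutation test). The KRT5 to KRT14 ratio moved by 0.27 (p = 0.4, exact permutation test), where the shCtrl ratios ranged from 1.84 to 3.37.

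Hair keratins were at low levels, and their genes went in both directions. The 26 genes summed to 7.09 ± 0.62 FPKM in shCtrl and 9.74 ± 1.55 in shS1#1. KRT81 (chr12:52285913-52291534), a type II hair cortex keratin, was at 1.31, 0.809 and 0.973 FPKM in shCtrl and 3.34, 2.35 and 3.37 in shS1#1. Every shS1#1 value was above every shCtrl value, and the log2 fold change was 1.47 ± 0.22 with an adjusted p of 0.00881. KRT31 (chr17:41393724-41397592), a type I hair cortex keratin, was at 0.869, 1.32 and 0.690 FPKM in shCtrl and 3.09, 2.56 and 3.51 in shS1#1. The groups did not overlap, and the log2 fold change was 1.61 ± 0.24 with an adjusted p of 0.00911. KRT81 shares 43.7% of its 50-base windows with other genes, KRT86 the first of them, and KRT31 shares 14.2% with KRT33B, KRT33A and KRT34. KRT75, a type II keratin of the follicle, was at 0.163, 0.284 and 0.474 FPKM in shCtrl and 0.943, 0.660 and 0.912 in shS1#1. It did not overlap between the groups, but its log2 fold change of 1.26 ± 0.39 had an adjusted p of 0.0810; the adjusted p was under 0.05 in 3 of its alternatives (0.0295 when genes with a mean of at least 10 reads were tested, 0.0233 for protein-coding genes only and 0.0260 with voom) and not in the others, where it was 0.0574 to 0.208. KRT86 and KRT84 overlapped between the groups, with adjusted p of 0.608 and 0.660.

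The 21 hair keratins below the filter had 104, 132 and 112 reads together in shCtrl and 47, 33 and 52 in shS1#1, and the 5 tested had 120, 126 and 100 and then 247, 177 and 255. The filter was on the mean over both groups. KRT32, which was lower in shS1#1, stayed below it, and so did KRT34, which was higher. KRT75, which was higher, passed, and so did KRT84, whose groups overlapped. The part of the filter in these directions was not tested. Of the reads of the 21 below the filter, most fell in the type I hair block of chromosome 17, which also holds the tested KRT31. This block was singled out after its values were seen and has no test of its own. In their order along the chromosome, KRT34 had 6, 11 and 3 reads in shCtrl and 16, 13 and 13 in shS1#1, and KRT31 had 22, 35 and 17 and then 72, 56 and 82. Both were higher in every shS1#1 library. Next to them KRT37 had 8, 8 and 5 reads in shCtrl and 3, 0 and 2 in shS1#1. KRT38 had 9, 11 and 13 reads in shCtrl and 1, 2 and 4 in shS1#1. KRT32, a hair cuticle keratin, had 10, 31 and 22 reads in shCtrl and 0, 2 and 0 in shS1#1. KRT35, a keratin of the hair matrix, had 9, 7 and 10 reads in shCtrl and 0, 0 and 2 in shS1#1, and KRT36 had 15, 19 and 9 and then 1, 2 and 7. All 5 were lower in every shS1#1 library. KRT34 and these 5 did not pass the filter, and the share of genes this low without overlap was not computed. The pseudogenes KRT41P and KRT43P among them went the same way, with 18 and 30 reads summed over shCtrl and 2 and 1 over shS1#1, as did the antisense gene AC003958.2 with 47 and 4, which shares 39.0% of the exonic bases of KRT37. On chromosome 12 the type II hair keratin KRT85 had 14, 20 and 13 reads in shCtrl and 3, 1 and 3 in shS1#1, and KRT74 had 21, 18 and 31 and then 15, 9 and 13.

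With no filter, KRT32, KRT35 and KRT85 were called lower, with adjusted p of 0.0346, 0.0482 and 0.0483 in limma, where 0.417% of 33572 genes were called lower. With a filter of a mean of at least 10 reads only KRT32 was called lower, where 0.925% of 15570 genes were. At counts this low the size of a fold change depends on the pseudocount, and none is given for these genes.

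**Figure D4:**
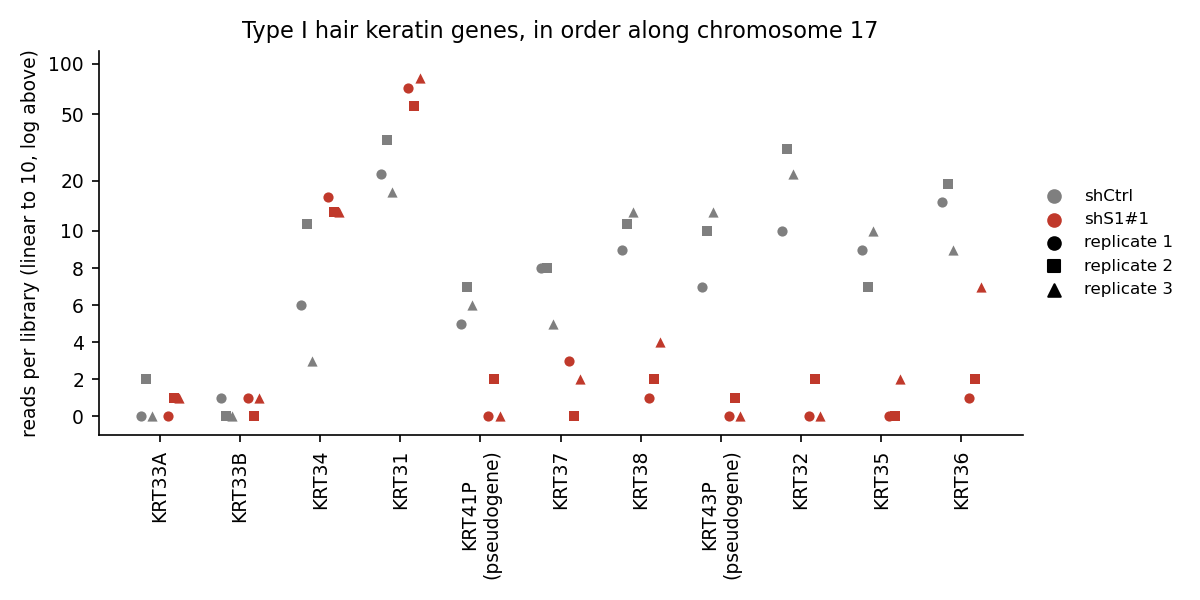
Points give reads per library, on an axis that is linear to 10 and logarithmic above, for the type I hair keratin genes and 2 pseudogenes in their order along chromosome 17, in grey for shCtrl and red for shS1#1. KRT34 and KRT31 have more reads in shS1#1, KRT33A and KRT33B have 0 to 2 reads in any library, and the 7 genes and pseudogenes to the right of KRT31 have fewer reads in shS1#1.

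The start regions of these neighbours are shown because read counts in 1 block differed between the groups in opposite directions. RefSeq (GRCh38.p14) gave a promoter for 34 of the 55 keratins. Each line is the window from 45 to 16 bases before the RefSeq start of a gene on the minus strand, read 5′ to 3′ on that strand, and capitals mark TATAAA, the only motif searched. It was searched on the gene's own strand only and stands in the same window of 2.63% of 27305 RefSeq promoters.
KRT34, chr17:41382322-41382351: cccacaattaatggTATAAAaggactgcag
KRT31, chr17:41397624-41397653: accctctgcagtgggaTATAAAtgctccct
KRT37, chr17:41424601-41424630: ccgcccaggatggggTATAAAagggttggg
KRT38, chr17:41440999-41441028: ccgcccaggatggggTATAAAagggctggg
KRT32, chr17:41467402-41467431: atttctatcatgagccccctcactgcaagg
KRT35, chr17:41481167-41481196: cactggggcagagaTATAAAtctggggtaa
KRT36, chr17:41489926-41489955: caatggtgagtgtacataaatgctccatag

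The windows of KRT37 and KRT38 are identical at 29 of 30 positions and those of KRT31 and KRT34 at 14 of 30. Only these 2 pairs were compared, each of genes that went the same way. The window of KRT33A, which had 2 reads in shCtrl and 2 in shS1#1, shares with that of KRT31 the TATAAA and all bases after it. TATAAA was in the windows of KRT31 and KRT34, which had more reads in shS1#1, and in those of KRT37, KRT38 and KRT35, which had fewer. It was also in the windows of KRT33A and KRT33B of the same block, which had 0 to 2 reads in any library. Keratins outside the block, among them KRT10, KRT24, KRT25 and KRT76, held it too, and others, such as KRT20, did not. Only 1 RefSeq start per gene was searched. The KRT8 window lies well inside the gene, which reaches to 52949954 on the minus strand. The windows of KRT36, KRT34, KRT5 and KRT4 likewise lie inside their genes, which reach to 41492546, 41382403, 52520687 and 52814551. The KRT32 window overlaps its gene, which reaches to 41467429. Other starts were not searched. For the abundant and called keratins of the chromosome 12 cluster, the windows of KRT8, KRT5 and KRT4 at these starts did not hold TATAAA.
KRT8, chr12:52926485-52926514: tgactggggcaggctttgtggggaggtgcc
KRT5, chr12:52520410-52520439: cccagttctggaagggataaaaagggggca
KRT4, chr12:52814132-52814161: ctgctgctccaggacatataagagacgaag
Keratins without an entry include KRT18, KRT19, KRT17, KRT7, KRT6A, KRT16, KRT14 and KRT81.

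Near-identical copies can share reads with keratin genes. Of 147 keratin pseudogene rows 7 were tested, none was called, and KRT8P3 alone passed an adjusted p under 0.05. KRT8P3, a processed copy of KRT8, was at 14.1, 14.3 and 13.2 FPKM in shCtrl and 30.3, 25.6 and 23.2 in shS1#1, with a log2 fold change of 0.92 and an adjusted p of 0.00393. KRT8P12 was at 6.16 to 8.12 FPKM in all libraries, with a log2 fold change of 0.01. KRT87P, an unprocessed copy of a hair keratin, had a log2 fold change of 0.62 and an adjusted p of 0.0598. Of the 50-base windows of KRT8 13.8% occur in other genes, as do 24.0% of those of KRT18, 19.9% of KRT16, 12.2% of KRT17, 3.24% of KRT5, 1.64% of KRT19 and 0.992% of KRT7, and 0 of KRT4. The part of shared windows in the keratin levels was not tested.

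Genes that attach keratin filaments to desmosomes and hemidesmosomes were mostly expressed. Of 20 such genes 16 were tested, none was called, where 3.16% of all genes were, and 5 were higher and none lower at an adjusted p under 0.05, where 8.82% and 5.17% of all genes were. These shares over all genes are the ones to set beside each list that follows. JUP, the plakoglobin of desmosomal plaques, was at 504, 525 and 541 FPKM in shCtrl and 708, 825 and 702 in shS1#1, with an adjusted p of 0.0207. The others were the plakin PPL (0.0436), the plakophilin PKP3 (0.0430) and the hemidesmosomal integrin chains ITGA6 (0.0262) and ITGB4 (0.0224), in adjusted p. PLEC, the plectin that links keratin to hemidesmosomes, was at 237, 243 and 251 FPKM in shCtrl and 305, 519 and 336 in shS1#1. It was highest in shS1#1 replicate 2, and its adjusted p was 0.0891. Without that library 8 of the 16 were higher, with PLEC, EVPL and PKP2 added, and 2 were lower, the plakophilin PKP1 (adjusted p 0.00972) and the epiplakin EPPK1 (adjusted p 0.0245), where 14.9% and 13.4% of all genes were. The median log2 fold change of the 16 was 0.38.

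The other intermediate filament genes that passed the filter did not follow the keratins. Of 16 genes 5 were tested, the nuclear lamins LMNA, LMNB1 and LMNB2 together with NES and BFSP1. None was higher at an adjusted p under 0.05, and 2 were lower. NES and BFSP1 did not pass, with adjusted p of 0.670 and 0.582. LMNB1, a B-type lamin of the nuclear envelope, was at 53.8, 54.0 and 54.5 FPKM in shCtrl and 39.0, 30.8 and 40.0 in shS1#1, with a log2 fold change of −0.57 and an adjusted p of 0.0206. LMNB2 was lower by the same test (−0.44 on the log2 scale, adjusted p 0.0207), and LMNA, the A-type lamin, had a log2 fold change of 0.06 and an adjusted p of 0.593. VIM, the filament of mesenchymal cells, was at 0.110 to 0.226 FPKM in all libraries and was not tested.

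Of 15 genes whose proteins bind, bundle or help clear keratins 14 were tested. FLG, the filaggrin that bundles keratin in skin, was at 0.470 to 0.588 FPKM in shCtrl and 1.18 to 1.78 in shS1#1 and was called, with a log2 fold change of 1.31 and an adjusted p of 0.0124. Its call was lost without shCtrl replicate 1, without shCtrl replicate 3 and without shS1#1 replicate 3. SQSTM1, the autophagy receptor found in keratin inclusion bodies, was at 40.5, 39.5 and 39.7 FPKM in shCtrl and 71.4, 70.5 and 71.2 in shS1#1. Its libraries hardly differed within a group, and the log2 fold change was 0.83 ± 0.06 with an adjusted p of 0.000657. DNAJB6, a chaperone that binds KRT18, had a log2 fold change of 0.48 and an adjusted p of 0.0147. HSPB1 and SFN, the most abundant of the list, did not pass, with adjusted p of 0.775 and 0.815. HSPB1 was at 501, 513 and 558 FPKM in shCtrl and 672, 414 and 625 in shS1#1, and without shS1#1 replicate 2, its low library, the adjusted p was 0.0157. Without that library CSNK1A1 was also higher and PNN lower.

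Of 24 factors known at keratin promoters 21 were tested. GRHL3, a grainyhead factor of barrier epithelium, was called: it was at 5.95, 6.38 and 5.49 FPKM in shCtrl and 20.5, 19.3 and 19.8 in shS1#1, with a log2 fold change of 1.73 ± 0.08 and an adjusted p of 0.000192. FOSL2 and ETS1 were higher at an adjusted p under 0.05, by 0.46 and 0.50 on the log2 scale, and CEBPA and NOTCH1 were lower, by −0.85 and −0.50. JUNB and KLF5, the most abundant of the list, did not pass. Without shS1#1 replicate 2, 6 factors were higher, with ELF3, FOSL1 and STAT3 added, and 5 were lower, with KLF5, CEBPB and CDX2 added. Among markers of squamous epithelium other than keratins, 6 of 10 were tested and SERPINB5 alone passed, with a log2 fold change of 0.48 and an adjusted p of 0.00808, while PKP1 was lower without shS1#1 replicate 2. Of the 3 gastric and intestinal markers tested, VIL1, the villin of microvilli, was called lower, at 5.23, 5.07 and 5.67 FPKM in shCtrl and 1.66, 2.21 and 1.58 in shS1#1, and MUC13 was lower at an adjusted p of 0.000927. The gastric mucins MUC5AC and MUC6 were below the filter, MUC5AC at 0.0757 to 0.1002 FPKM in shCtrl and 0.514 to 0.825 in shS1#1 and MUC6 at 0.0748 to 0.114 and 0.122 to 0.338, with every shS1#1 value above every shCtrl value. The share of genes this low without overlap was not computed. The part of these factors and markers in the keratin levels was not tested.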

How the data were processed

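Expression was deposited by the authors as FPKM. The submitters' processing notes name HISAT2 2.0.5, featureCounts 1.5.0-p3, DESeq2 1.20.0 and hg38. FPKM times gene length was a whole multiple of 1 step per library for 100% of values (tolerance 0.02 reads, or the rounding of the deposited digits for large counts), which gave reads per gene. The deposited FPKM already carried a median-of-ratios scaling between libraries. The coordinates of all 58735 genes equalled GENCODE 29. The groups were compared with limma 3.58.1 under R 4.3.3 (lmFit, eBayes with trend) on log2(FPKM + 0.1), keeping genes whose mean reached 0.5 FPKM, with Benjamini-Hochberg adjustment over 15556 genes. Fold changes are on that scale, which understates changes of low genes. On simulated reads (dispersion 0.00627, 15627 genes), 163 of 190 changed genes tested (85.8%) were recovered at a log2 fold change of 1.5, and 10 unchanged genes were called. The simulation gave every gene the same dispersion and had no library that stood apart. Its change was also larger than that of most tested keratins, so these rates need not hold for the real libraries. All sample columns were used. Transcript windows of 50 bases were compared with pandas 2.3.3, numpy 2.4.6 and Python 3.11.15. Tested keratins were named, the lower ones when above 0.1 FPKM, and the called, most abundant or passing genes of each hand-written list. The keratins and lists were chosen with earlier results of these data known. Replicate numbers were taken from the library titles.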

Additional observations from a re-analysis of the deposited data

How the results depend on the processing

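Over 17 alternatives (other pseudocounts, filters and scalings, no trend, protein-coding genes only, voom on recovered reads, the replicate number as a block, and leaving out each library), KRT18, KRT16, KRT4, KRT5 and KRT31 were called in all, KRT81 in 16 and KRT14 in 12, and 10 keratins had an adjusted p under 0.05 in all. With no filter, 3 keratins were lower at an adjusted p under 0.05 and called lower, KRT8, KRT19 and KRT17 did not pass (adjusted p 0.141, 0.252 and 0.220), and the median log2 fold change was 0.11 over all keratins and −0.087 on chromosome 17, since genes with few reads then enter. With a mean of at least 10 reads, 1 keratin was lower by both rules. With total reads as the scaling, log2 ratios of summed FPKM were 0.75 for all keratins, 0.85 for simple, 0.49 for stratified, 0.69 for type I and 0.88 for type II keratins, against 0.83, 0.92, 0.56, 0.77 and 0.95 as deposited. With a pseudocount of 1, 204 genes in all were called higher and 44 lower, against 376 and 116. Leaving out 1 library gave 53 to 151 genes called lower, with 53, 55 and 58 without shCtrl replicate 1, 2 and 3, and log2 differences of the KRT5 to KRT14 ratio from 0.11 to 0.52. Libraries with equal replicate numbers did not pair (the correlations of their deviations from the group means were −0.0351, 0.0325 and 0.0668, and not every library correlated best with its own number). With the number as a block 7 keratins were called and 12 had an adjusted p under 0.05, as KRT19 (0.0572) and KRT17 (0.0791) did not pass, while 310 genes in all were called higher and 79 lower. Depth limits the hair keratins most, since 21 of them had 132 reads or fewer together in each library.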
